A study of Mus musculus with 3 samples.

Results

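The Polycomb and trithorax chromatin regulators examined here were a list of 36 genes, found by symbol in the platform annotation of an Affymetrix Mouse Gene 2.0 ST array series. Of these, 34 had a probe set paired with that gene alone, among 22180 genes on the array. They comprised all 10 listed genes of Polycomb repressive complex PRC2, 15 of 17 of PRC1, all 7 of the H3K4 methyltransferase complexes and both H3K27 demethylases. For Cbx6 and Kdm2b the probe sets also listed other genes, so no level was assigned to either.

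Polycomb and trithorax proteins keep developmental genes silent or active through opposing marks on histones. PRC2 methylates lysine 27 of histone H3 (H3K27), PRC1 ubiquitinates histone H2A and compacts chromatin, and the trithorax-type complexes methylate lysine 4 of the same H3 tail (H3K4). In pluripotent cells many promoters of developmental regulators carry both H3 marks and are called bivalent. The H3K27 demethylases remove the PRC2 mark.

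Total RNA was measured in 3 cultures grown in N2B27 medium, with 1 array each. Mouse epiblast stem cells (mEpiSCs), the in vitro counterpart of the primed post-implantation epiblast, had been derived by induction of mESCs of the EB3 line and were kept with 20 ng/ml ActivinA, a TGF-beta family ligand, and 12 ng/ml bFGF. The Activin+PD culture held EB3 mouse embryonic stem cells (mESCs) grown for 64 days with 20 ng/ml ActivinA and 2 µM PD0325901, an inhibitor of the ERK-activating kinase MEK. The 2i culture held EB3 mESCs kept for 34 days in CHIR99021, an inhibitor of GSK3, and the same MEK inhibitor PD0325901, both at 2 µM. All 3 cultures descended from the same line, and with 1 culture per condition the condition, the culture and its time in medium cannot be told apart.

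There were no replicates, so no difference was tested, and "higher" and "lower" describe these 3 arrays. Levels are log2 of the deposited intensity. As background served the level that 95% of olfactory and vomeronasal receptor probe sets did not exceed, which was log2 5.57 for mEpiSC, 5.50 for Activin+PD and 5.59 for 2i. Probe sets of the same gene differed from each other with a standard deviation per probe set of 0.33 for mEpiSC minus 2i, 0.30 for mEpiSC minus Activin+PD and 0.24 for Activin+PD minus 2i, on the log2 scale, which does not include variation between cultures. The marker genes matched the labels. All 12 naive markers were at least 1.5-fold lower in mEpiSC than on either mESC array, and 7 of 10 primed markers were at least 2-fold higher in mEpiSC in each of the 2 comparisons, with Otx2 past 2-fold against 2i alone and Lef1 against Activin+PD alone. Of 10 fibroblast feeder markers 6 were above background on each array, at a highest level of 6.90 in mEpiSC, 6.71 in Activin+PD and 6.58 in 2i, while Postn, Dcn, Lum and Fap were below background on every array.

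The regulators were widely present and mostly at similar levels in the 3 cultures. On every array 33 of the 34 measured members were above background, where 61.6% of all 22180 genes were in mEpiSC, 62.1% in Activin+PD and 60.2% in 2i, the exception being Cbx8, a PRC1 chromodomain subunit. Of those 33, 23 lay within 1.5-fold across all 3 arrays, 10 differed at least 1.5-fold between some pair of arrays and 3 differed at least 2-fold. Over the 14539 genes above background on at least 1 array, 26% differed at least 1.5-fold and 12.0% at least 2-fold by the same measure. The members' counts were thus near these shares of all genes. The mEpiSC array was the lowest of the 3 for 17 of 33 members, against 35.9% of all genes, and the highest for 9, against 44.3%. The mEpiSC array was at least 1.5-fold below both mESC arrays for 6 members, Ezh1, Suz12, Mtf2, Cbx7, Ash2l and Rbbp5, against 7.23% of all genes, and at least 1.5-fold above both for 0 members, against 6.38% of all genes. Phf19 alone was at least 1.5-fold higher in Activin+PD than on both other arrays, against 2.35% of all genes. None was that far lower in Activin+PD than on both other arrays, against 0.626% of all genes, and 2i stood apart from both others for 0 members, against 1.51% of all genes below both and 1.54% above both.

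**Figure D1:**
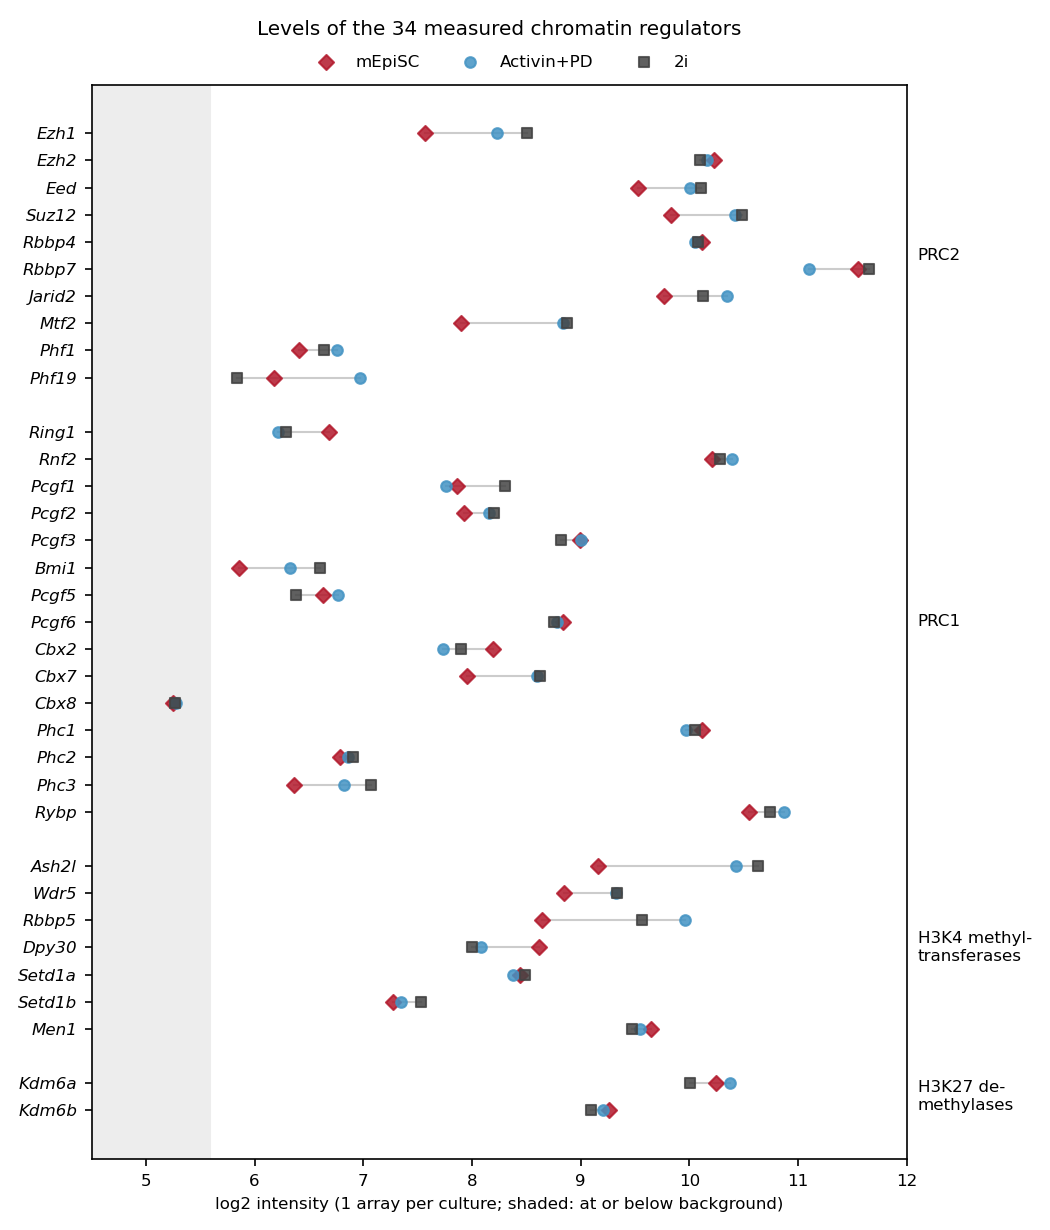
Log2 intensity of the 34 measured members on the mEpiSC (diamonds), Activin+PD (circles) and 2i (squares) arrays, 1 array per culture, grouped by complex, with the range at or below background shaded. Most members have the 3 symbols close together, while Ash2l, Rbbp5, Mtf2 and Ezh1 have the mEpiSC symbol well to the left, and Cbx8 lies in the shaded range.

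The promoters of the members with these patterns are shown because the genes either shared the mEpiSC pattern or, for Phf19, stood apart from it. The most upstream start listed for each gene was used. RefSeq promoter sequences (GRCm38.p6) were given for 30 of the 36 members, and Ash2l had none there. Each line is the 250 bases before the transcription start, on the gene's strand. Capitals mark matches on either strand to a GC box (GGGCGG), an E2F motif (TTCCCGC) or a SMAD box (CAGAC). Suz12 lies at chr11:79992856-79993105 (+), Mtf2 at chr5:108065424-108065673 (+), Cbx7 at chr15:79932647-79932896 (-) and Phf19 at chr2:34913977-34914226 (-).
Suz12: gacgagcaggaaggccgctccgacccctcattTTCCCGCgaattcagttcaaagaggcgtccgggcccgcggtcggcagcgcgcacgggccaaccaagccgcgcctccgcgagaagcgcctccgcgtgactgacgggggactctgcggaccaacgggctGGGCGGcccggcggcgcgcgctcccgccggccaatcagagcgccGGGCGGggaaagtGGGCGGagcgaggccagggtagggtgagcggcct
Mtf2: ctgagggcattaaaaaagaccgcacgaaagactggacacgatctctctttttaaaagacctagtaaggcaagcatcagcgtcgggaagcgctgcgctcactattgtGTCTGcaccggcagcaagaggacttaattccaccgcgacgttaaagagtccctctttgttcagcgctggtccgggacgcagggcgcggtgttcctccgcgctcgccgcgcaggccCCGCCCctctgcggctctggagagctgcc
Cbx7: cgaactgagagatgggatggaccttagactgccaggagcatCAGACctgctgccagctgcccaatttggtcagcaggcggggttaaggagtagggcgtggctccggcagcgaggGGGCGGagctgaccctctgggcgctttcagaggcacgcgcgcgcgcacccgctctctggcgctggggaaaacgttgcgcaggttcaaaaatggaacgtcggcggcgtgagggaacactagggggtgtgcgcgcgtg
Phf19: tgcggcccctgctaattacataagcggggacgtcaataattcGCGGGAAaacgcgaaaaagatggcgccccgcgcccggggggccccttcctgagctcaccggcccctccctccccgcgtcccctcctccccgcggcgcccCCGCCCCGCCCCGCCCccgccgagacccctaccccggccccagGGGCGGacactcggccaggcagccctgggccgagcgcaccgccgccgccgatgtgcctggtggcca
The Suz12 window held 3 GC boxes and 1 E2F motif, and the Phf19 window held 4 GC boxes, some overlapping, and 1 E2F motif. Mtf2 and Cbx7 each had 1 GC box and 1 SMAD box. The windows of Ezh1 and Rbbp5, whose levels followed the same pattern as Suz12, held none of these motifs, and AAGGTCA, the motif of the naive factor ESRRB, was in none of the 6 windows. Over all 32851 windows of this length, 32.7% held a GC box, 3.82% the E2F motif, 42.2% the SMAD box and 4.08% the ESRRB motif. CpG dinucleotides numbered 37 in the Suz12 window, 31 in Phf19, 23 in both Mtf2 and Cbx7, 14 in Ezh1 and 10 in Rbbp5, where the median window had 6. A match describes the letters only.

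Within PRC2, several subunits were lower in mEpiSC while the main catalytic subunit was within 1.5-fold on all 3 arrays. Ezh2, the methyltransferase that dominates in dividing cells, was at 10.22 in mEpiSC, 10.16 in Activin+PD and 10.10 in 2i. Its paralog Ezh1, which has weaker enzymatic activity, was at 7.57 in mEpiSC, 8.23 in Activin+PD and 8.51 in 2i, so that it was lowest in mEpiSC, with log2 differences of -0.94 from 2i and -0.66 from Activin+PD. The 2 mESC arrays differed by -0.28 for Ezh1, close to the probe set error. As arrays measure bulk RNA, fewer cells with a transcript and less of it per cell cannot be told apart.

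Suz12, the scaffold subunit on which PRC2 assembles, was at 9.83 in mEpiSC, 10.42 in Activin+PD and 10.49 in 2i. Eed, which binds methylated H3K27 and stimulates the enzyme, was at 9.53 in mEpiSC, 10.004 in Activin+PD and 10.11 in 2i. Both were lower in mEpiSC and alike on the mESC arrays. For Suz12 the log2 difference from 2i was -0.66 and from Activin+PD -0.59, just past 1.5-fold, and for Eed it was -0.58 and -0.48, just short of it. The histone chaperones behaved differently. Rbbp4 was at 10.12 in mEpiSC, 10.05 in Activin+PD and 10.08 in 2i. Rbbp7 was at 11.56 in mEpiSC, 11.10 in Activin+PD and 11.65 in 2i, which made it lowest in Activin+PD, by -0.55 against 2i, a difference that 3.02% of all genes compared reached in that direction.

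The accessory subunits, which direct PRC2 to its targets, showed the widest spread. Mtf2, the Polycomb-like protein that recruits PRC2 to CpG-rich promoters in mESCs, was at 7.90 in mEpiSC, 8.84 in Activin+PD and 8.88 in 2i. It was nearly 2-fold lower in mEpiSC than on either mESC array, with log2 differences of -0.98 from 2i and -0.94 from Activin+PD. Phf19, a second Polycomb-like protein, was at 6.18 in mEpiSC, 6.97 in Activin+PD and 5.84 in 2i. It was the only member at least 2-fold apart between the mESC arrays, 2.19-fold higher in Activin+PD than in 2i, and 1.04% of all genes compared were higher by as much. With 16 subtracted from each intensity the log2 difference of Phf19 was 1.40 in place of 1.13, so its size depends on any constant in the deposited values. Phf1, the remaining Polycomb-like gene, was at 6.41 in mEpiSC, 6.76 in Activin+PD and 6.64 in 2i. Jarid2, which helps PRC2 bind and is needed for normal differentiation of mESCs, was at 9.77 in mEpiSC, 10.34 in Activin+PD and 10.13 in 2i, lowest in mEpiSC at -0.58 against Activin+PD.

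The PRC1 genes varied less. Rnf2 (Ring1B), the main E3 ligase of PRC1 in mESCs, was at 10.21 in mEpiSC, 10.39 in Activin+PD and 10.28 in 2i, with no pair of arrays 1.5-fold apart. Its paralog Ring1 was at 6.68 in mEpiSC, 6.21 in Activin+PD and 6.28 in 2i, slightly higher in mEpiSC. Rybp, which marks the variant PRC1 complexes that lack a chromodomain subunit, was at 10.55 in mEpiSC, 10.87 in Activin+PD and 10.74 in 2i.

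The 6 Pcgf proteins each define a kind of PRC1, and here they differed in direction. Bmi1 (Pcgf4), known for its role in stem cell self-renewal, was at 5.86 in mEpiSC, 6.32 in Activin+PD and 6.60 in 2i. It was the only Pcgf gene 1.5-fold apart, at -0.75 between mEpiSC and 2i, and its mEpiSC level was close to background. Pcgf1, the partner of Kdm2b in a variant PRC1 that binds CpG islands, was at 7.86 in mEpiSC, 7.76 in Activin+PD and 8.31 in 2i, so both Activin A cultures were below 2i, by -0.44 for mEpiSC and -0.55 for Activin+PD. Pcgf5 was at 6.63 in mEpiSC, 6.76 in Activin+PD and 6.38 in 2i, the opposite order relative to 2i. Pcgf2 (Mel18) was at 7.93 in mEpiSC, 8.16 in Activin+PD and 8.201 in 2i. Pcgf6, part of the PRC1 that silences germline genes, was at 8.84 in mEpiSC, 8.78 in Activin+PD and 8.75 in 2i. Pcgf3 was at 8.99 in mEpiSC, 9.002 in Activin+PD and 8.82 in 2i, and its second probe set gave differences of 0.29 for mEpiSC and 0.16 for Activin+PD from 2i, against 0.17 and 0.18 on the first.

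Chromobox (Cbx) proteins read the H3K27 mark for canonical PRC1. Cbx7, the chromobox protein of undifferentiated mESCs, was at 7.96 in mEpiSC, 8.60 in Activin+PD and 8.62 in 2i, lower in mEpiSC by -0.67 against 2i and -0.64 against Activin+PD. Cbx2, which is linked to PRC1 of differentiating cells, was at 8.197 in mEpiSC, 7.73 in Activin+PD and 7.90 in 2i. It was highest in mEpiSC, but by less than 1.5-fold, at 0.30 against 2i and 0.46 against Activin+PD. Cbx8 was at 5.25 in mEpiSC, 5.28 in Activin+PD and 5.27 in 2i, below background on each array, so no difference is given. Of the Polyhomeotic genes, which polymerise PRC1, Phc1 was at 10.11 in mEpiSC, 9.97 in Activin+PD and 10.05 in 2i. Phc3 was at 6.36 in mEpiSC, 6.82 in Activin+PD and 7.07 in 2i, lower in mEpiSC than in 2i by -0.70. Phc2 was at 6.79 in mEpiSC, 6.86 in Activin+PD and 6.90 in 2i.

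The widest differences of all members were in the core that the H3K4 methyltransferases share, made of Wdr5, Rbbp5, Ash2l and Dpy30. Ash2l, which with Rbbp5 activates the catalytic subunit, was at 9.16 in mEpiSC, 10.42 in Activin+PD and 10.63 in 2i. It was 2.76-fold lower in mEpiSC than in 2i and 2.40-fold lower than in Activin+PD. Rbbp5 was at 8.64 in mEpiSC, 9.96 in Activin+PD and 9.57 in 2i, which made it 1.90-fold lower in mEpiSC than in 2i and 2.49-fold lower than in Activin+PD. Of all genes compared, 2.74% were as far below in mEpiSC as Ash2l against 2i, and 3.69% against Activin+PD. For Rbbp5 these shares were 5.62% against 2i and 3.44% against Activin+PD. Wdr5, which holds the core together and is needed for mESC self-renewal, was also lowest in mEpiSC, at 8.84, against 9.33 in Activin+PD and 9.34 in 2i. Dpy30, which binds Ash2l, went the other way, at 8.62 in mEpiSC, 8.09 in Activin+PD and 8.0 in 2i, and was the only member at least 1.5-fold higher in mEpiSC than in 2i, by 0.62. The core genes were thus unequal in mEpiSC, with Ash2l and Rbbp5 lower and Dpy30 higher.

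The 3 other members of the H3K4 group, partners of that core, differed less. Setd1a, the H3K4 methyltransferase needed in the early epiblast, was at 8.44 in mEpiSC, 8.37 in Activin+PD and 8.49 in 2i. Setd1b was at 7.27 in mEpiSC, 7.35 in Activin+PD and 7.53 in 2i. Men1, which encodes menin, the adaptor of the Kmt2a and Kmt2b complexes, was at 9.65 in mEpiSC, 9.55 in Activin+PD and 9.47 in 2i. All 3 stayed within 1.5-fold in every comparison.

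The 2 H3K27 demethylase genes among the members were also close in the 3 cultures. Kdm6a (Utx), which is X-linked, was at 10.24 in mEpiSC, 10.38 in Activin+PD and 10.004 in 2i. Kdm6b (Jmjd3) was at 9.26 in mEpiSC, 9.21 in Activin+PD and 9.09 in 2i. Both were lowest in 2i, by at most 0.37 for Kdm6a in Activin+PD. Uty, a paralog of Kdm6a outside the members, was at 7.08 in mEpiSC, 7.87 in Activin+PD and 7.82 in 2i. It was lower in mEpiSC by -0.73 against 2i and -0.79 against Activin+PD, and is counted below with the other trithorax genes.

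Taking the comparisons in turn, mEpiSC set against 2i gave 8 of 33 members (24.2%) at least 1.5-fold lower, where 10.2% of all 14223 genes compared were, and 1 of 33 at least 1.5-fold higher, where 9.5% of all genes were. At 2-fold, 1 member, Ash2l, was lower, against 4.96% of all genes, and 0 were higher, against 4.53%. The 8 were Ezh1, Suz12 and Mtf2 of PRC2, Bmi1, Cbx7 and Phc3 of PRC1, and Ash2l and Rbbp5 of the H3K4 core. The median over members was -0.11, against 0.030 over all genes compared. By group, the median was -0.29 for PRC2, -0.093 for PRC1, -0.26 for the H3K4 genes and 0.20 for the demethylases. With 16 subtracted from each intensity, 3 members were at least 2-fold lower, Mtf2 and Ezh1 joining Ash2l.

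mEpiSC set against Activin+PD, a comparison of cultures that both received Activin A, gave 7 of 33 members (21.2%) at least 1.5-fold lower, against 10.9% of all 14404 genes compared, and 0 higher, against 8.72%. Ash2l and Rbbp5 were at least 2-fold lower, where 5.37% of all genes were, and 0 members were 2-fold higher, where 3.58% of all genes were. The others were Ezh1, Suz12, Mtf2, Phf19 and Cbx7. The median over members was -0.14, against 0.041 over all genes, and by group it was -0.53 for PRC2, -0.10 for PRC1, -0.079 for the H3K4 genes and -0.039 for the demethylases. The comparison shares its mEpiSC array with the one above, so the 2 sets of values are not independent.

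Between the mESC cultures few members differed, as was so for genes in general. Within 1.5-fold lay 32 of 33 members and 13078 of all 14074 genes compared. Phf19 was the 1 member of 33 at least 1.5-fold higher in Activin+PD, where 4.53% of all 14074 genes compared were, and it was also the 1 member at least 2-fold higher, against 1.37%. None was lower by 1.5-fold, against 2.55% of all genes, or by 2-fold, against 0.817%. The other members ranged from -0.55 for Rbbp7 to 0.39 for Rbbp5. The median over members was -0.030, against -0.007 over all genes.

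**Figure D2:**
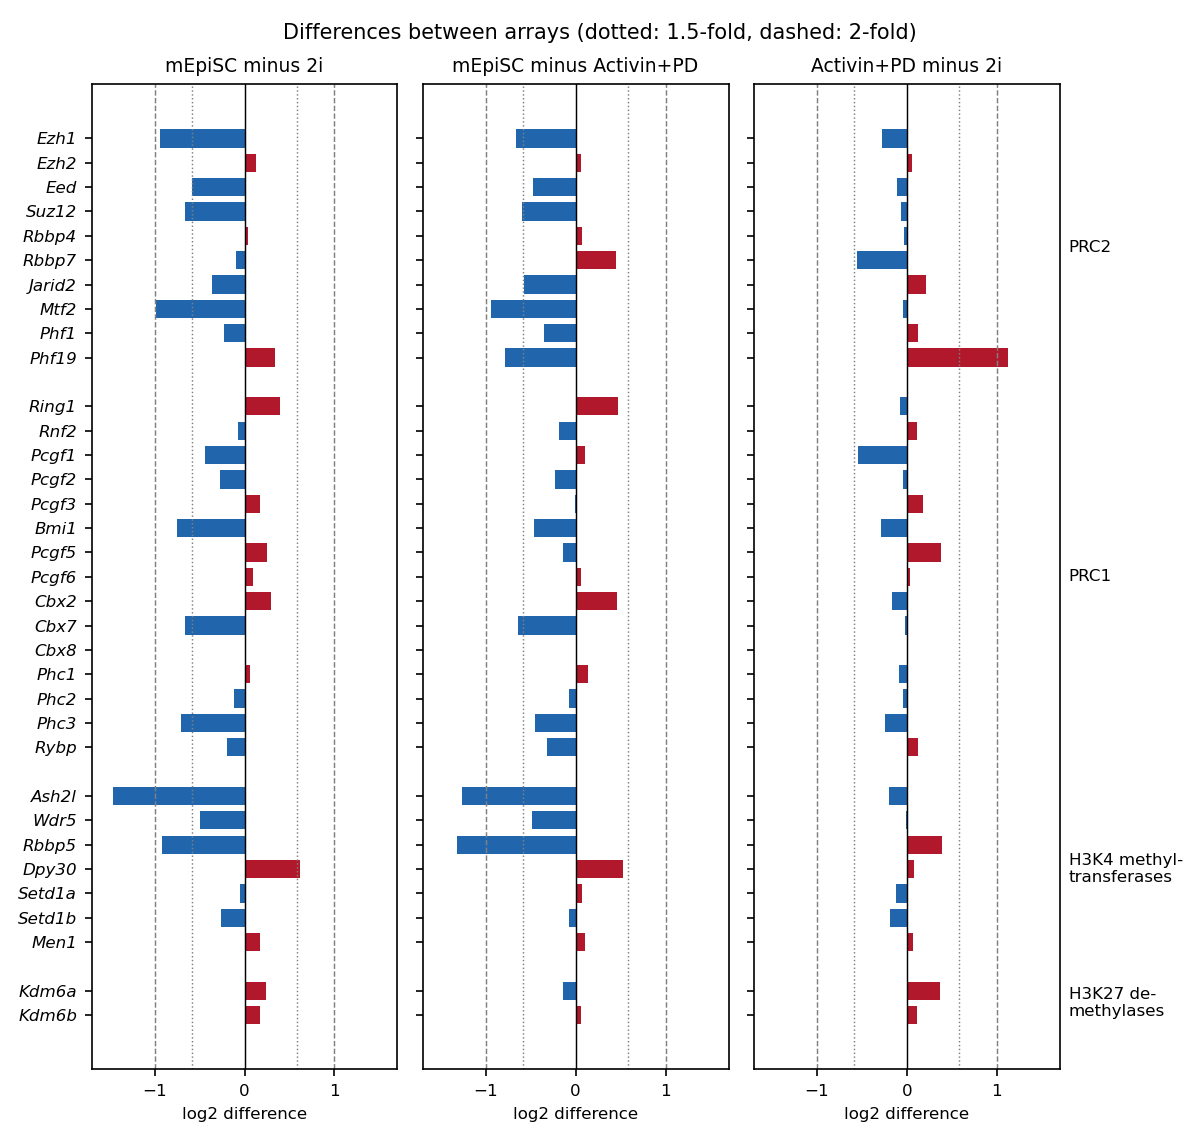
Log2 difference of each member above background, for mEpiSC minus 2i, mEpiSC minus Activin+PD and Activin+PD minus 2i, with 1 array per culture; bars to the left are lower in the first-named culture, and dotted and dashed lines mark 1.5-fold and 2-fold. Ash2l, Rbbp5, Mtf2 and Ezh1 have long bars on the left in both mEpiSC panels, and Phf19 has one in mEpiSC minus Activin+PD alone. Phf19 is also the 1 bar past 2-fold between the mESC cultures.

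A switch between paralogs was defined as 1 paralog at least 1.5-fold higher and another at least 1.5-fold lower in the same comparison. Among the members no family showed one: 0 of 27 pairs in each of the 3 comparisons. This follows from the counts above, because among the members each comparison lacked either a paralog 1.5-fold higher or a paralog 1.5-fold lower. Some paralogs differed unequally, counted here by pairs. Pairs of 1 family share genes, so the counts are not independent, and no pairs of other genes were counted for comparison. Every Pcgf pair at least 1.5-fold apart held Bmi1 or Pcgf1. In mEpiSC against 2i, 11 of 27 pairs had differences at least 1.5-fold apart and 2 pairs at least 2-fold apart. Ezh1 differed by -0.94 and Ezh2 by 0.13, a contrast of -1.07. Mtf2 differed by -0.98 and Phf19 by 0.34, a contrast of -1.32. Bmi1, at -0.75, and Pcgf5, at 0.25, were 1.99-fold apart. In mEpiSC against Activin+PD, 5 pairs were at least 1.5-fold apart and 1 at least 2-fold apart, which was Cbx2, at 0.46, over Cbx7, at -0.64, a contrast of 1.11. In Activin+PD against 2i, 5 pairs were at least 1.5-fold apart. Both pairs at least 2-fold apart there were of Phf19, against Mtf2 and against Phf1. A contrast of this kind shows unequal change and does not compare the amounts of the paralogs. The related lists described below were not scanned for switches. In mEpiSC against 2i, Asxl3, at 0.91, with Asxl2, at -0.68, met the definition. So did Chd7, at 0.71, with Chd8, at -0.59.

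**Figure D3:**
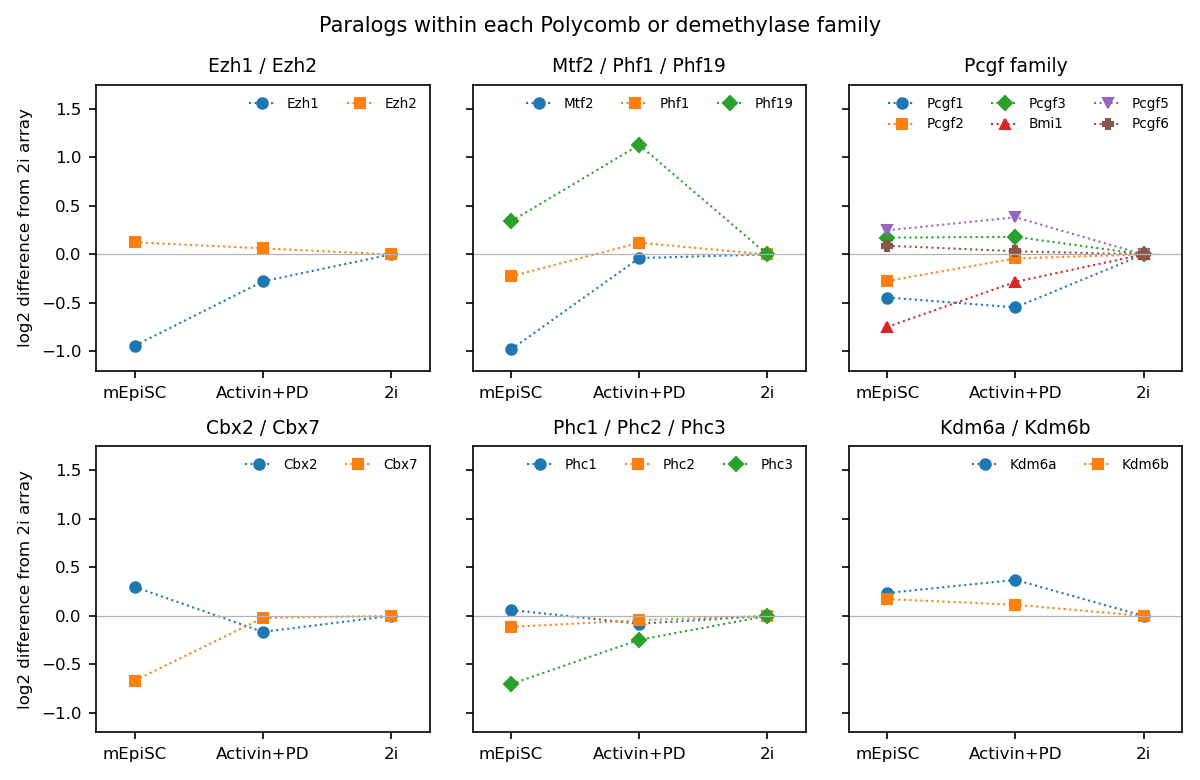
Log2 difference of each paralog from its level on the 2i array (0 by definition), for mEpiSC, Activin+PD and 2i, in 6 families, with 1 array per culture. Ezh1, Mtf2, Bmi1, Cbx7 and Phc3 fall below the other paralogs of their families in mEpiSC, and Phf19 stands above its own at 1.13 in Activin+PD.

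Other genes of these systems were described from lists outside the members. Of 21 further PRC2 and PRC1 components, 2 were at least 2-fold lower in mEpiSC than in 2i, where 4.96% of all genes were, and 1 was higher, where 4.53% were, with a list median of -0.36. Sfmbt2, a Polycomb protein with MBT repeats, was at 7.25 in mEpiSC and 9.24 in 2i. Epop, a PRC2 subunit of mESCs, was at 7.94 in mEpiSC and 9.04 in 2i. Yaf2, the paralog of Rybp, was higher, at 8.25 in mEpiSC and 7.03 in 2i. Against Activin+PD, Epop differed by -1.62, Sfmbt2 by -1.47 and Lcor, whose locus also encodes a PRC2 partner, by -1.14, which made 3 of 21 at least 2-fold lower, against 5.37% of all genes, with a list median of -0.42. Between Activin+PD and 2i, 0 of the 21 were 2-fold apart, where 1.37% of all genes were 2-fold higher in Activin+PD and 0.817% lower. With 16 subtracted from each intensity, 1 of the 21 was 2-fold apart.

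Among the other H3K4 methyltransferase genes, 2 of 15 compared were at least 2-fold lower in mEpiSC than in 2i, against 4.96% of all genes, and 1 was higher, against 4.53%, with a list median of -0.44. Kmt2c, a methyltransferase of enhancers, was at 6.94 in mEpiSC and 8.01 in 2i, and Ncoa6, a subunit of its complex, was at 7.86 in mEpiSC and 9.20 in 2i. Setd7, an H3K4 monomethyltransferase outside these complexes, was higher, at 8.16 in mEpiSC and 6.42 in 2i. Against Activin+PD, Kmt2c differed by -1.34 and Setd7 by 1.06, and the list median was -0.14 over 16 genes. In Activin+PD against 2i, none of 16 was 2-fold apart, where 1.37% of all genes were 2-fold higher and 0.817% lower.

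The H3K4 demethylases, which oppose these enzymes, were lower in mEpiSC than in Activin+PD for all 5 genes compared, where 45.1% of all genes were lower. Their median was -0.57, and 2 of 5 were at least 1.5-fold lower, where 10.9% of all genes were. Kdm5b was the 1 gene at least 2-fold apart, at 9.99 in mEpiSC and 11.00 in Activin+PD, where 5.37% of all genes were that far lower. Against 2i the median of the 5 was -0.16 in mEpiSC and 0.28 in Activin+PD. Among 7 genes of PR-DUB, the complex that takes the PRC1 mark off again, Asxl3 alone was at least 2-fold higher in mEpiSC than in Activin+PD. Its level was 6.91 in mEpiSC and 5.78 in Activin+PD, and 3.58% of all genes were that far higher. The 25 genes of the BAF chromatin remodelling complex had 0 members 2-fold apart in any of the 3 comparisons. Of all genes, 4.53% were 2-fold higher and 4.96% lower in mEpiSC than in 2i. Against Activin+PD, 3.58% were higher in mEpiSC and 5.37% lower, and in Activin+PD against 2i, 1.37% were higher and 0.817% lower. The BAF medians were 0.11 in mEpiSC against 2i and 0.10 in mEpiSC against Activin+PD. The 8 other trithorax genes also had 0 members 2-fold apart in any comparison. At 1.5-fold, 3 of the 8 were lower in mEpiSC than in 2i, against 10.2% of all genes, and 1 was higher, against 9.5%. Relative to Activin+PD, 2 of the 8 were that far lower in mEpiSC, where 10.9% of all genes were, and 0 higher, where 8.72% were.

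Developmental regulators that Polycomb represses in mESCs were examined as Hox genes and as other regulators. Of 36 Hox genes, 12 (33.3%) were above background on each array. Of all genes, 61.6% were in mEpiSC, 62.1% in Activin+PD and 60.2% in 2i. The 12 Hox genes were not all the same on each array. Hoxd10 was above background in mEpiSC alone, Hoxc10 in Activin+PD alone, and Hoxa2 and Hoxb13 in 2i alone. The highest Hox level was 6.496 in mEpiSC, 6.86 in Activin+PD and 6.85 in 2i. None of the 14 compared with 2i in either comparison, or of the 13 compared between mEpiSC and Activin+PD, was 2-fold apart. The shares of all genes that were 2-fold apart are given below for each comparison. Of 64 other regulators with bivalent promoters, 43 (67.2%) were above background in mEpiSC, 44 (68.8%) in Activin+PD and 40 (62.5%) in 2i, shares not below those of all genes given earlier, with a median level of 5.85 in mEpiSC, 5.83 in Activin+PD and 5.87 in 2i. In mEpiSC against 2i, 3 of 48 compared were at least 2-fold higher, against 4.53% of all genes, and 6 lower, against 4.96%. The lower ones were led by the homeobox genes Meis2, at 6.09 in mEpiSC and 9.33 in 2i, and Cdx2, at 5.91 in mEpiSC and 8.64 in 2i. Olig3 was not above background in mEpiSC and was lower there than in 2i by at least 2.07, and Msx2 differed by -1.92. Against Activin+PD, 3 of 50 were at least 2-fold higher, against 3.58% of all genes, and 6 lower, against 5.37%. The endoderm factor gene Foxa2 was at 8.01 in mEpiSC and 6.35 in Activin+PD, Gata6 was higher by at least 1.59, Meis2 differed by -2.98 and Cdkn2a, a cell cycle inhibitor locus, by -1.85. In Activin+PD against 2i, 2 of 45 were at least 2-fold higher, against 1.37% of all genes, and 2 lower, against 0.817%. Cdx2 differed by -2.80, Olig3 by -1.62 and Gata3 by 1.56, with 0.18 on its second probe set, and Pax8 was higher by at least 1.23.

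**Figure D4:**
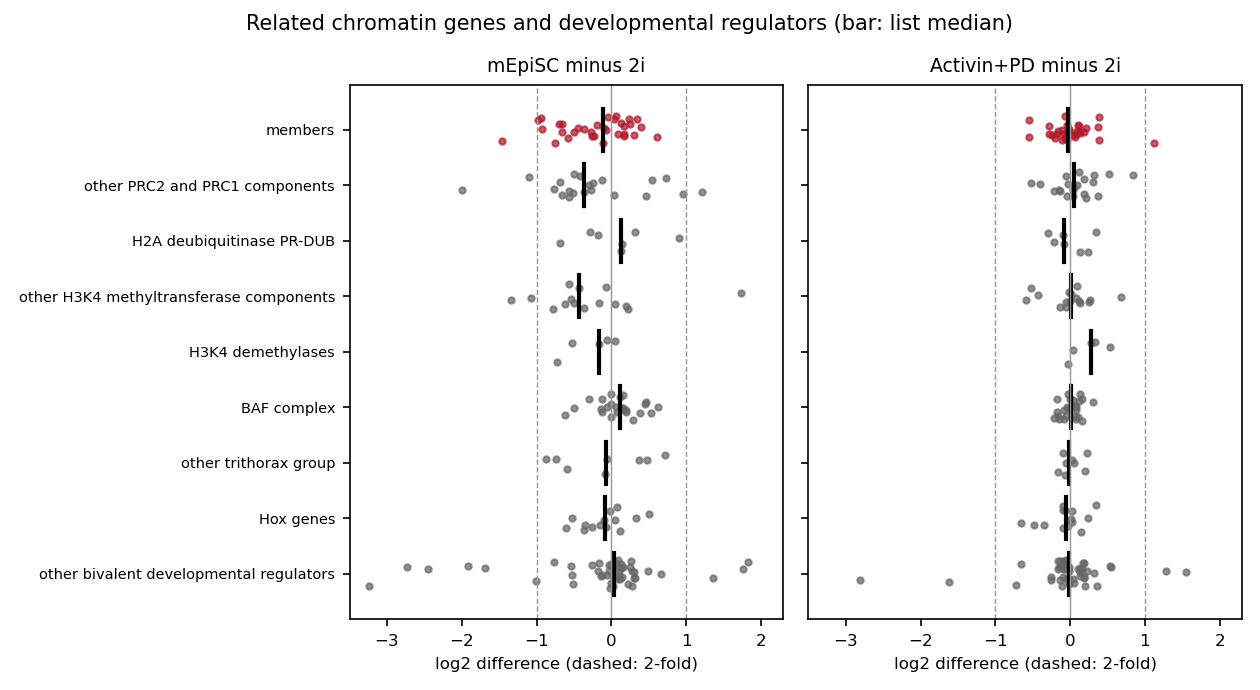
Log2 difference of each gene above background in the members (top row) and 8 related lists, for mEpiSC minus 2i and Activin+PD minus 2i, with 1 array per culture; thick bars are list medians and dashed lines mark 2-fold. The points spread more widely in the mEpiSC panel, where the medians of the other PRC2 and PRC1 components and the other H3K4 methyltransferase components lie at -0.36 and -0.44.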

How the data were processed

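RNA of 3 cultures was hybridised to 1 array each, so their number limits the precision and no test was made. Per the labels' protocols, labelling used Affymetrix's GeneChip WT PLUS reagents. The authors deposited linear intensities per probe set, RMA-processed per the submitters' processing notes, and the series' design text names GeneSpring GX 11.5. Log2 of each deposited intensity was taken. No source used here says whether a constant was added before deposit, and RMA makes array distributions alike, which hides differences in total RNA.

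Of 33793 probe sets, 23521 had 1 gene symbol in GEO's platform annotation, 1814 several and 8458 none. For 23328 probe sets the symbol was taken from RefSeq by Entrez ID, whether or not it differed from the annotation. The probe set with the highest mean represented a gene. Genes were compared where the higher array exceeded its background, from 1405 receptor probe sets.

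Values were given in full for members at least 1.5-fold apart in any comparison and for their paralogs. Other members were described by value as well. From each related list and comparison, up to 4 genes at least 2-fold apart were named. Members and lists were chosen with earlier results of these data known. Analyses used Python 3.11.15, pandas 2.3.3 and statsmodels 0.14.6, and were tested on simulated data. The 8 alternatives are described at the end.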

Additional observations from a re-analysis of the deposited data

Results flagged for a closer look

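For Cbx6 and Kdm2b, signal was present in probe sets that the comparisons did not use because the annotation lists several genes for each. The probe set that lists Cbx6 with 2 other genes had an intensity of 130.8 in mEpiSC, 122.2 in Activin+PD and 128.5 in 2i. The probe set that lists Kdm2b with 1 other gene had an intensity of 222.3 in mEpiSC, 218.7 in Activin+PD and 206.6 in 2i. All 6 values were above background, and they cannot be assigned to 1 gene.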

How the results depend on the processing

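No paired analysis was possible because each group had 1 array. The 8 alternatives were subtracting 16 from each intensity, raising values below background to it, no filter on dim genes, background at the 99th percentile, quantile normalisation, median centring, lowess removal, and the mean of all probe sets of a gene. The 17 member differences of at least 1.5-fold kept their sign and stayed past 1.5-fold in all 136 values. Many of these values could not change, as these members were above background on each array and had 1 probe set each. Only subtracting 16, quantile normalisation, median centring and lowess removal could alter them. Of 120 values for the member counts and medians, 118 moved by less than a limit, which was 1.5 times for a count and, for a median, its standard error as approximated from the probe set error and the number of genes. The exceptions were the number at least 2-fold lower in mEpiSC than in 2i, which was 3 with 16 subtracted, and the median of mEpiSC minus Activin+PD, which was -0.20 after lowess removal. The medians of PRC2 and of the H3K4 genes for Activin+PD minus 2i lay near 0 and turned to 0.0044 with the mean of all probe sets and 0.010 after lowess removal. Gata3 was at 0.87 for Activin+PD minus 2i with the mean of its probe sets. A dim gene's difference is limited by signal over background, which matters most for Phf19 and Bmi1, at 5.84 in 2i and 5.86 in mEpiSC.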
